A study of Mus musculus with 22 samples.

Results

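The genes examined here are 9 genes that make, bind or sense retinoic acid: the synthesis enzymes *Aldh1a1*, *Aldh1a2* and *Aldh1a3*, the intracellular binding proteins *Crabp1* and *Crabp2*, and the nuclear receptors *Rara*, *Rarb*, *Rarg* and *Rxra*. They were chosen by name, and all 9 were found among the 24454 gene symbols of the raw count table. The study isolated cells positive for VE-Cadherin, a junction protein of endothelium, from the aorta-gonad-mesonephros (AGM) region of untreated C57BL/6 mouse embryos in order to follow the endothelial to haematopoietic transition (EHT), the conversion of aortic endothelium into blood cells. By surface CD44 and Kit, 4 populations were gated, and each of the 22 libraries was SMART-Seq2 cDNA from 25 cells.

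CD44Neg, labelled as endothelial cells, had 10 libraries, with 4 from embryonic day (E) 9.5, 3 from E10 and 3 from E11. CD44LowKitNeg, labelled as hemogenic endothelium and spelled CD44LoKitNeg by the submitters, had 6 libraries, with 1 from E9.5, 2 from E10 and 3 from E11. CD44LowKitPos (pre-HSPC in the labels, HSPC being haematopoietic stem and progenitor cell) had 3 libraries, 1 from E9.5 and 2 from E10. CD44High (HSPC in the labels) had 3 libraries, all from E11. No stage held both CD44LowKitPos and CD44High, so that stage and population cannot be told apart between them. A date given in the labels changed with stage. The labels do not say whether libraries came from separate embryos or litters, so p-values measure the spread between these libraries only, which may be technical.

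Retinoic acid is made from vitamin A: retinol is oxidised to retinaldehyde, and retinaldehyde dehydrogenases of the ALDH1A family oxidise that to retinoic acid. The acid is carried inside cells by CRABP proteins, destroyed by the CYP26 enzymes, and read in the nucleus by a retinoic acid receptor (RAR) paired with a retinoid X receptor (RXR). In the embryo the cells that make retinoic acid are often not the cells that respond to it, and the pathway is known for its part in the formation of blood stem cells from hemogenic endothelium.

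*Rarb* and the degradation enzyme gene *Cyp26a1* carry a motif for the RAR-RXR pair next to a start annotated by RefSeq, and their sequences are shown because several results given after them turn on their levels. The motif searched was DR5, a pair of NGNTCA elements (A or G as the first base, G or T as the third) in the same orientation with 5 bases between them, on both strands, in RefSeq windows of 300 bases running from 250 before to 50 after each annotated start (GRCm38.p6). DR5 was found in 32 of 32851 windows (0.0974%). Of the 9 genes examined, 7 were in the table with 13 windows, and *Rarb* was the only 1 of the 7 with DR5. Of all 68 genes of the pathway, 52 were in the table, and these were the 2 that held it. The 250 bases before each start are given with DR5 in capitals, *Rarb* at chr14:16575477-16575726 on the minus strand and *Cyp26a1* at chr19:37697558-37697807 on the plus strand.
Rarb: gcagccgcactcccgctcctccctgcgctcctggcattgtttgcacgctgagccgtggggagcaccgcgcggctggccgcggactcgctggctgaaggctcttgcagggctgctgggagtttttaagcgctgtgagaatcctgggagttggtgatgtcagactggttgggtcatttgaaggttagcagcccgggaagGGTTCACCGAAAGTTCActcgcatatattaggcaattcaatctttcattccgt
Cyp26a1: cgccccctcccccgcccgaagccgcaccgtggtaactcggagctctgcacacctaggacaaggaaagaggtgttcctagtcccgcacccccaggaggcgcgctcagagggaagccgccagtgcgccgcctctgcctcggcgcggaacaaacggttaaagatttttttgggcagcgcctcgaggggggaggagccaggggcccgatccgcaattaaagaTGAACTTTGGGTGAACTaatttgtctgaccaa
In *Rarb* the motif lay 53 to 37 bases before this RefSeq start and read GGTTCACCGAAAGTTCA on the strand of the gene. In *Cyp26a1* it lay 32 to 16 bases before the start and read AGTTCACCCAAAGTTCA on the other strand. The same elements with 2 bases between them (DR2) were in 88 windows (0.268%), with none of them in a gene of the pathway. The *Rarb* start used lies inside the gene: of 7 GENCODE transcripts, 5 start within 1000 bases of it, 2 of these before the motif, and the other 2 start 243529 and 243680 bases upstream. Counts were given for the whole gene, so its starts cannot be told apart. A match describes the letters only, and no binding was measured.

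The libraries held 3912350 to 8657546 counts assigned to genes, with a median of 5758383. Levels are given as normalized CPM, that is counts scaled to library size (CPM) with TMM factors over the 22 libraries. A count of 0 allowed a level of up to 0.348 to 0.816 normalized CPM depending on the library (3 counts, counting error only). Overlap between groups of libraries is given as a description, since the share of all genes without overlap was not counted in any comparison. The labelled identities were compared with marker genes. The summed level of 10 endothelial markers was 4396 to 7367 in CD44Neg, 4553 to 10771 in CD44LowKitNeg, 919 to 2360 in CD44LowKitPos and 74.2 to 153 in CD44High, where *Cdh5*, which encodes VE-Cadherin itself, was at 0 in all 3 libraries. The sum of 10 blood markers was 5.84 to 40.4 in CD44Neg, 8.36 to 303 in CD44LowKitNeg, 490 to 1406 in CD44LowKitPos and 1659 to 2473 in CD44High. Erythroid markers summed to 2.61 to 23.7, 13.8 to 61.3, 8.37 to 26.8 and 48.2 to 255 in the same order. All 8 macrophage markers were detected in CD44High, summing to 1697 to 4562 against 0 to 53.0 elsewhere, and *C1qa*, *C1qb*, *C1qc* and *Adgre1* were at 0 in the other 3 populations. Mesenchymal markers summed to 196 in CD44High replicate 20, 109 in replicate 21 and 0.272 in replicate 22. The part of these cells in the CD44High results was not tested, and fewer cells of a type cannot be told apart from less RNA per cell in libraries of pooled cells.

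The enzymes that make retinoic acid were hardly detected in any population. *Aldh1a1* (chr19:20492715-20643465) had no count in any of the 22 libraries, in a gene that overlaps an antisense gene of the table. *Aldh1a2*, the main retinoic acid-making enzyme of the early embryo (chr9:71215789-71296243), had 1 count in all, in CD44LowKitPos replicate 17. *Aldh1a3* (chr7:66390890-66427517) had 17 counts, all in CD44Neg replicate 3, at 2.63 normalized CPM. None of the 3 had enough counts to be tested between populations.

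The binding protein genes were seen in scattered libraries of every population. *Crabp1* (chr9:54764748-54773110), which encodes a carrier linked to the degradation of retinoic acid, had counts in 5 of 22 libraries. Its levels were 2.84 in 1 of 10 CD44Neg libraries, 5.11 and 4.40 in 2 of 6 CD44LowKitNeg libraries, 0.603 in 1 CD44LowKitPos library and 1.58 in 1 CD44High library, and 0 elsewhere. *Crabp2* (chr3:87948666-87953376), whose product hands retinoic acid to RARs, had counts in 10 of 22 libraries, of which 15.8 in CD44Neg replicate 2 was the highest. The other *Crabp2* levels above 0 were 3.22 and 3.35 in CD44Neg, 5.56, 0.811, 1.17 and 2.03 in CD44LowKitNeg, 0.133 in CD44LowKitPos, and 0.594 and 1.60 in CD44High. Both genes overlapped between all populations, and their fitted changes are not given since most libraries were at 0. In contrast, *Fabp5*, which encodes another carrier of retinoic acid and fatty acids, was present in all 22 libraries, from 22.5 to 187 normalized CPM.

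All 4 receptor genes were detected, and *Rarb* was the RAR with the highest level per kilobase in endothelium. To compare genes, each level was divided by the length of the gene's merged exons. In CD44Neg the mean level per kilobase was 6.03 for *Rarb*, 2.52 for *Rara*, 2.05 for *Rarg* and 1.20 for *Rxra* (SD 2.87, 1.58, 1.69 and 0.964, n = 10). In CD44LowKitNeg it was 9.69 for *Rarb*, 3.34 for *Rara*, 0.894 for *Rarg* and 0.699 for *Rxra* (SD 3.42, 1.59, 0.755 and 0.508, n = 6). *Rarb* stood above *Rara* by more than the SD of either gene in both endothelial populations, whereas *Rara* and *Rarg* in CD44Neg, and *Rarg* and *Rxra* in CD44LowKitNeg, differed by less than their SDs. In CD44LowKitPos the order was *Rarb* 2.25, *Rara* 0.952, *Rarg* 0.652 and *Rxra* 0.533, and no neighbours in it differed beyond their spread (SD 2.39, 0.547, 0.143 and 0.343, n = 3). In CD44High it was *Rara* 1.14, *Rxra* 0.807, *Rarb* 0.551 and *Rarg* 0 (SD 0.742, 0.125, 0.955 and 0, n = 3).

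Among the RXR genes, *Rxrb* was higher per kilobase than *Rxra* in every population, at 2.56 in CD44Neg, 3.18 in CD44LowKitNeg, 4.01 in CD44LowKitPos and 3.48 in CD44High on average (SD 1.33, 2.05, 2.10 and 2.22). *Rxrg* was above 0 in 3 libraries, all CD44Neg, the highest at 2.44 normalized CPM. *Rxrb* was called in none of the comparisons.

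The 3 RAR genes were lower as a sum in CD44High than in either endothelial population. Their summed level per kilobase was 7.01 to 17.8 in CD44Neg and 9.24 to 16.2 in CD44LowKitNeg. It was 1.86, 2.63 and 7.06 in CD44LowKitPos and 2.06, 1.89 and 1.12 in CD44High. All 3 CD44High libraries and 2 of 3 CD44LowKitPos libraries lay below every endothelial library. *Rarb* made up a median of 55.6% of this sum in CD44Neg and was the largest of the 3 in 8 of 10 libraries, and in CD44LowKitNeg it made up 69.3% and was the largest in 5 of 6. In CD44High *Rarb* was 80.2% of the sum in replicate 20 and 0% in replicates 21 and 22, where every RAR count (31 and 18) was of *Rara*.

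**Figure D1:**
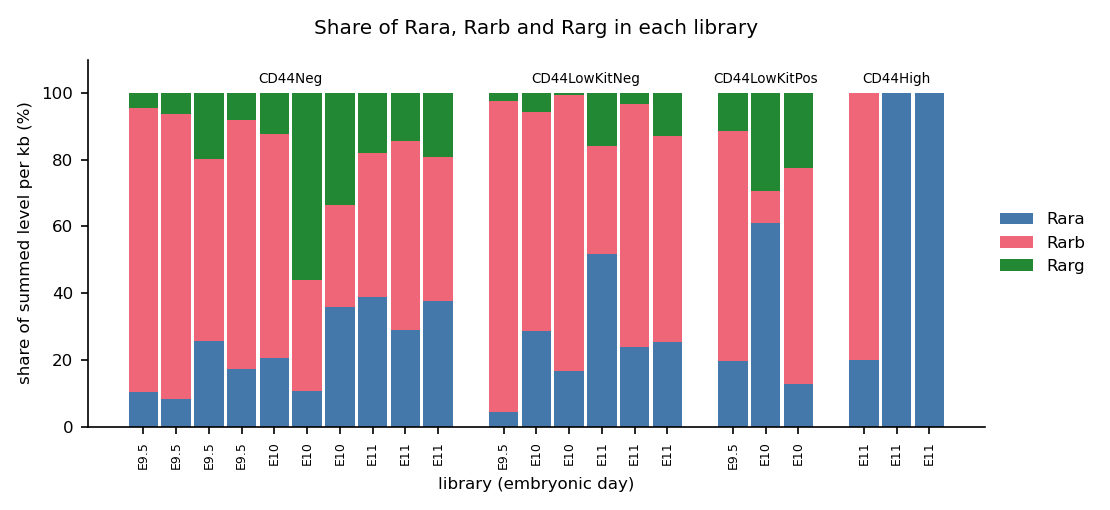
Share of each RAR gene in the summed RAR level per kilobase, in percent, with a bar for each of the 22 libraries grouped by population. *Rarb* is the largest share in 8 of 10 CD44Neg and 5 of 6 CD44LowKitNeg libraries, and *Rara* is the whole bar in 2 of 3 CD44High libraries.

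*Rarb* (chr14:16430839-16819156, minus strand), a receptor gene that is itself a known target of retinoic acid, ranged from 14.5 to 62.7 normalized CPM in CD44Neg with a median of 29.0. In CD44LowKitNeg it was 15.7 in replicate 11 and 52.7 to 66.7 in the other 5 libraries, with a median of 55.5. The 5 libraries were above all but 1 of the CD44Neg libraries, which was at 62.7, and replicate 11 was near the lowest CD44Neg value. The gene overlaps *Top2b* on the opposite strand, and whether counting used the strand is not given in the sources used here.

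In CD44LowKitPos *Rarb* was at 0.931, 8.94 and 25.6 normalized CPM. In CD44High it was at 8.71 (44 counts) in replicate 20 and at 0 in replicates 21 and 22. CD44High did not overlap either endothelial population, while CD44LowKitPos overlapped CD44Neg and CD44LowKitNeg.

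*Rarg* (chr15:102234938-102257517), the receptor gene with the lowest RAR level in CD44LowKitNeg, ranged from 1.33 to 26.2 in CD44Neg (median 7.70) and from 0.406 to 8.83 in CD44LowKitNeg (median 3.01). It was 2.33, 2.53 and 3.47 in CD44LowKitPos and 0 in all 3 CD44High libraries. The values listed for CD44High did not overlap those of the other populations, which overlapped one another. However, CD44LowKitNeg replicate 16, at 0.406 (3 counts), lay below the 0.594 to 0.816 that a count of 0 allows in CD44High.

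*Rara* (chr11:98927818-98974942), the most widely expressed RAR gene in tissues, ranged from 3.22 to 23.3 in CD44Neg (median 8.68) and from 2.20 to 20.8 in CD44LowKitNeg (median 17.1). It was 4.96, 1.47 and 6.03 in CD44LowKitPos and 1.78, 8.25 and 4.90 in CD44High. Every population overlapped every other. *Rxra* (chr2:27676440-27762957), the partner of RARs and of other nuclear receptors, ranged from 2.17 to 16.7 in CD44Neg (median 4.15) and from 0 to 7.39 in CD44LowKitNeg (median 3.74). Its levels were 1.71, 5.07 and 1.96 in CD44LowKitPos and 5.15, 4.26 and 3.81 in CD44High, and the CD44High libraries lay within the range of both endothelial populations.

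**Figure D2:**
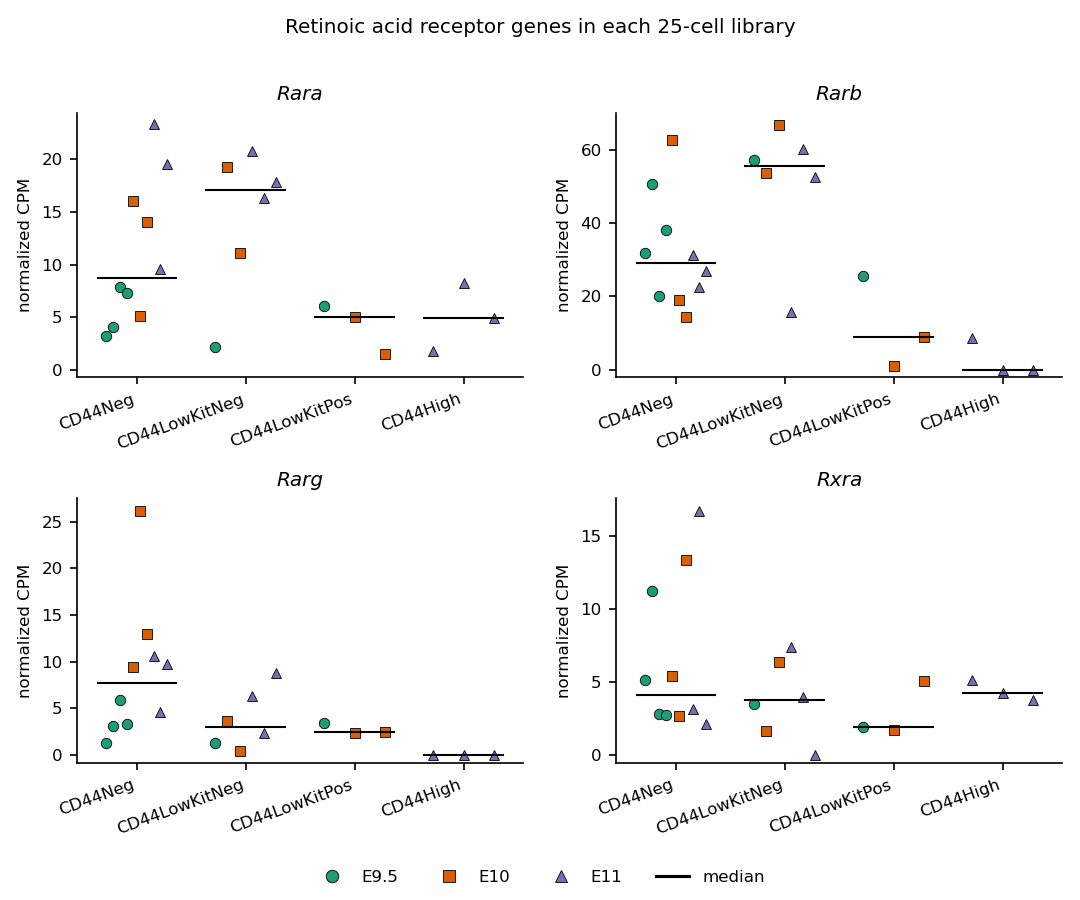
Normalized CPM of *Rara*, *Rarb*, *Rarg* and *Rxra* in each library (points, shaped by stage) with a line at the median of each population. *Rarb* lies between 14.5 and 66.7 in all endothelial libraries and at 0 in 2 of 3 CD44High libraries, and *Rarg* is at 0 in all 3.

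The first comparison asked what sets the CD44LowKitNeg endothelium apart from CD44Neg endothelium. No receptor gene passed the threshold of an adjusted p under 0.01 in edgeR's quasi-likelihood test. Of the 9 genes, 4 could be tested, 0 were called and 1 had an unadjusted p under 0.05. Of all 11022 genes tested, 3588 had an unadjusted p under 0.05 and 10.2% were called (4.94% higher and 5.23% lower in CD44LowKitNeg). DESeq2 and limma voom also called 0 of the 9 genes. *Rarb* differed by 0.69 on the log2 scale (SE 0.33, adjusted p = 0.145), with adjusted p from 0.0450 to 0.757 over 24 alternatives. By stage, *Rarb* was at 57.3 in the 1 CD44LowKitNeg library of E9.5, above 31.9, 50.6, 20.1 and 38.0 in CD44Neg. It was at 15.7, 60.2 and 52.7 in CD44LowKitNeg against 31.3, 22.6 and 26.8 in CD44Neg at E11, and at 53.7 and 66.7 against 62.7, 19.01 and 14.5 at E10. The populations overlapped at E10 and at E11. *Rara* differed by 0.42 (SE 0.51, adjusted p = 0.631), *Rarg* by -1.18 (SE 0.72, adjusted p = 0.276) and *Rxra* by -0.76 (SE 0.80, adjusted p = 0.562). The *Rarg* difference was -0.47 within E11 (adjusted p = 0.909) and -2.17 within E9.5 and E10 (adjusted p = 0.272). At E10 *Rarg* was 3.69 and 0.406 in CD44LowKitNeg, below 9.45, 26.2 and 12.9 in CD44Neg, and at E9.5 it was 1.28 against 1.33 to 5.96. At E11 the populations overlapped, at 6.32, 2.33 and 8.83 against 10.6, 4.67 and 9.76.

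Of 59 other genes of the pathway (uptake, retinol oxidation, degradation, carriers, receptor partners, cofactors and textbook targets), 53 had counts and 36 were tested, of which 5 rose and 1 fell in CD44LowKitNeg, beside the 10.2% of all genes called. Their median log2 fold change was 0.36, beside 0.01 for all genes tested. *Cyp26b1*, which encodes an enzyme that oxidises retinoic acid to inactive products, ranged from 6.19 to 48.9 in CD44Neg (median 21.8) and was 25.0, 117, 90.0, 115, 109 and 97.3 in CD44LowKitNeg. Replicate 11, at 25.0, was the only CD44LowKitNeg library within the CD44Neg range. *Cyp26b1* rose by 1.96 on the log2 scale (SE 0.40, adjusted p = 0.00163). Within E11 alone the *Cyp26b1* value was 2.74 (adjusted p = 0.0121) and within E9.5 and E10 it was 1.99 (adjusted p = 0.0227), both short of the threshold of 0.01.

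*Cyp26a1*, the related enzyme gene whose promoter is shown above, did not pass in this fit. In CD44Neg it was 17.3, 36.5, 29.0 and 31.4 at E9.5, 3.82, 6.93 and 2.23 at E10 and 0, 0 and 1.24 at E11. In CD44LowKitNeg it was 92.7 at E9.5, 21.3 and 48.8 at E10 and 27.4, 37.0 and 33.8 at E11, so that the populations did not overlap within any stage but overlapped when stages were pooled. Its log2 fold change was 1.76 without stage (SE 0.81, adjusted p = 0.134), 3.94 with stage as a covariate (adjusted p = 5.02e-04), 6.11 within E11 (adjusted p = 0.00578) and 2.37 within E9.5 and E10 (adjusted p = 0.0845). *Cyp26c1* reached at most 3.41 and was not tested.

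*Dhrs3*, which encodes a retinaldehyde reductase and so turns back the step before retinoic acid, was the gene of the list that fell. It ranged from 33.9 to 132 in CD44Neg (median 62.6) and from 1.68 to 33.7 in CD44LowKitNeg (median 17.7), with no overlap between 33.7 and 33.9. The log2 fold change of *Dhrs3* was -1.86 (SE 0.44, adjusted p = 0.00522), but its adjusted p was 0.220 within E11 and 0.0663 within E9.5 and E10. Leaving out CD44LowKitNeg replicate 12, 13 or 14 also ended the call for *Dhrs3* (adjusted p = 0.0149, 0.0105 and 0.0118).

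Of 18 textbook retinoic acid target genes, which include *Cyp26b1* and *Dhrs3*, 11 were tested, and 3 rose and 1 fell, beside 4.94% and 5.23% of all genes. The other 2 that rose were the homeobox genes *Meis1* and *Meis2*. *Meis1* ranged from 0.778 to 16.96 in CD44Neg and from 32.0 to 73.9 in CD44LowKitNeg (log2 fold change 2.51, SE 0.48, adjusted p = 9.42e-04). *Meis2* ranged from 2.90 to 33.1 in CD44Neg and from 50.9 to 132 in CD44LowKitNeg (2.24, SE 0.38, adjusted p = 4.12e-04). Neither gene overlapped between the populations. Within E9.5 and E10 the adjusted p was 0.0216 for *Meis1* and 0.130 for *Meis2*, and *Meis2* was at 0.146 within E11 and at 0.0148 in the fit of all 22 libraries.

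Among 12 receptor cofactor genes, all tested, 2 rose, beside 4.94% of all genes. *Ncoa2*, a coactivator of nuclear receptors, had a mean of 54.2 in CD44LowKitNeg and 18.9 in CD44Neg (log2 fold change 1.53, SE 0.29, adjusted p = 9.05e-04), with an adjusted p of 0.120 within E11 and 0.0435 within E9.5 and E10. *Ncor1*, a corepressor that binds RARs without ligand, had means of 159 and 90.5 (0.82, SE 0.21, adjusted p = 0.00955), and was called in 8 of 24 alternatives. *Fabp5* had a log2 fold change of 0.19 (SE 0.33) and *Rdh10*, the main retinol dehydrogenase gene of the embryo, 0.56 (SE 0.80). The 8 neural markers summed to 111 to 683 in CD44LowKitNeg against 20.7 to 107 in CD44Neg. Nearly all of this sum was *Stmn2*, a stathmin gene named after its values were seen, with means of 296 and 53.6 (log2 fold change 2.48, SE 0.37, adjusted p = 1.22e-04). *Tubb3*, the other neural marker detected in CD44LowKitNeg, had means of 0.0417 and 0.0771, with *Sox2*, *Elavl3*, *Sox10*, *Pax6* and *Neurog2* at 0 there. Blood markers summed to 16.1, 11.8 and 8.36 in CD44LowKitNeg at E11 and to 120, 303 and 154 at E9.5 and E10, against 5.84 to 40.4 in CD44Neg, so that only the earlier libraries lay above the CD44Neg range. Erythroid markers summed to 13.8 to 61.3 in CD44LowKitNeg and 2.61 to 23.7 in CD44Neg, and mesenchymal markers to 2.03 to 76.2 (median 22.6) and 0 to 27.2 (median 1.17), with 7 and 6 of 8 mesenchymal markers detected and *Col1a1* at 0 in both. The part of these markers in the differences was not tested.

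**Figure D3:**
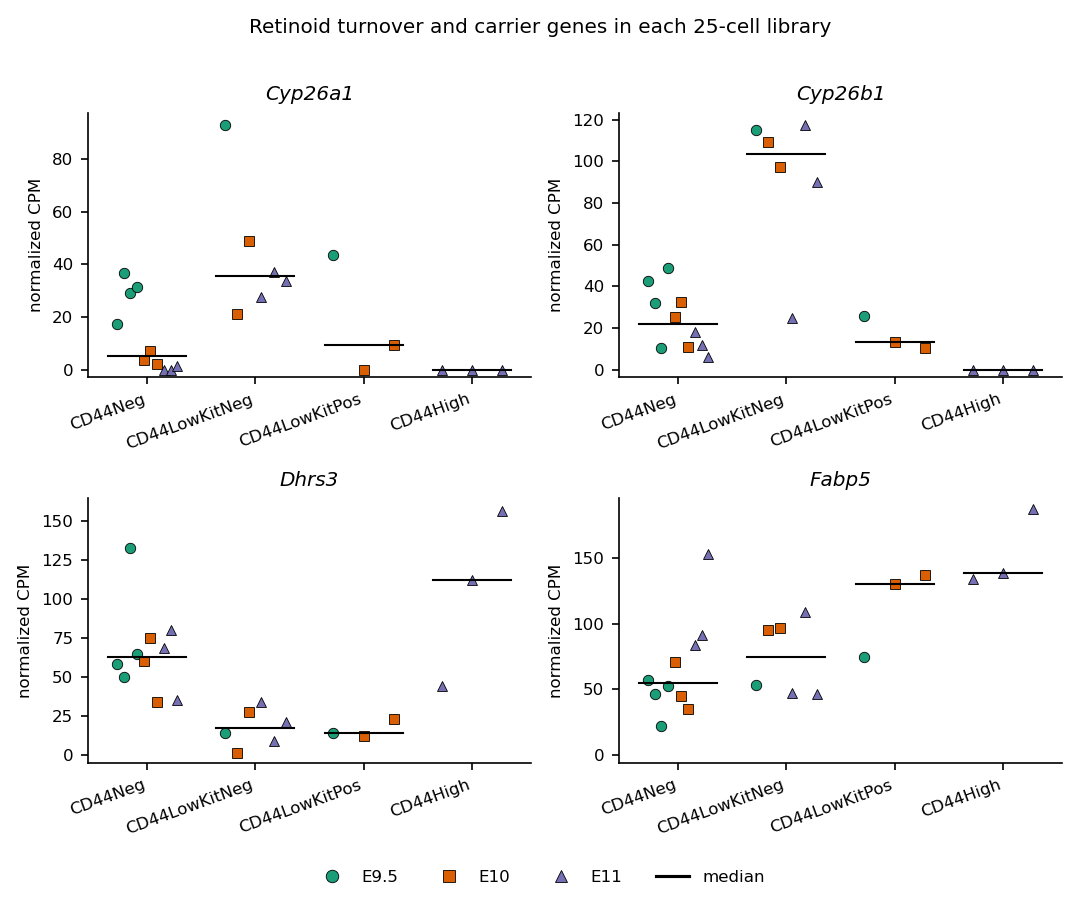
Normalized CPM of *Cyp26a1*, *Cyp26b1*, *Dhrs3* and *Fabp5* in each library (points, shaped by stage) with a line at the median of each population. *Cyp26b1* is at 90.0 or more in 5 of 6 CD44LowKitNeg libraries, at 48.9 or less in all CD44Neg libraries and at 0 in CD44High.

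Between CD44LowKitNeg and CD44LowKitPos, a step that the study proposes and at which Kit appears, 6 of the 9 genes were tested. Of these, 0 were called by edgeR and 2 had an unadjusted p under 0.05. Of all 12949 genes tested, 3525 had an unadjusted p under 0.05 and 4.26% were called. DESeq2 and limma voom called 0 of the 9 genes as well. *Rarb* differed by -2.11 on the log2 scale (SE 0.91, adjusted p = 0.133), by -3.38 without CD44LowKitPos replicate 19 (adjusted p = 0.0576) and by -1.59 without replicate 17 (adjusted p = 0.393). *Rara* differed by -1.81 (SE 0.80, adjusted p = 0.143), by -0.99 with stage as a covariate and by -0.38 within E9.5 and E10. *Rarg* differed by -0.45 and *Rxra* by -0.39, and both turned positive under limma voom. Of the 59 other genes, 43 were tested and *Dhrs4*, which encodes another retinol and retinaldehyde dehydrogenase-reductase, was the 1 called. It was 72.0, 56.0 and 52.2 in CD44LowKitPos and 12.7 to 29.1 in CD44LowKitNeg (log2 fold change 1.48, SE 0.34, adjusted p = 0.00741) without overlap, but was called in 3 of 15 alternatives, and without CD44LowKitPos replicate 17 its adjusted p was 0.0758. *Cyp26b1*, at 13.3, 10.5 and 25.9 in CD44LowKitPos, differed by -2.48 (SE 0.64, adjusted p = 0.0143).

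Against CD44Neg, CD44LowKitPos showed log2 differences of -1.40 for *Rara*, -1.42 for *Rarb* (adjusted p = 0.366), -1.64 for *Rarg* and -1.16 for *Rxra*. None of the 6 genes tested was called by edgeR, DESeq2 or limma voom, and 0 had an unadjusted p under 0.05. Of all 12949 genes tested, 2631 had an unadjusted p under 0.05 and 3.48% were called. The *Rarb* difference was -0.88 without CD44LowKitPos replicate 17, -2.67 without replicate 19 and -2.20 by limma voom, and the *Rara* difference was -0.92 with stage as a covariate and -0.85 within E9.5 and E10. For *Rxra* it was -1.83 without CD44LowKitPos replicate 18. *Meis1* was the only other gene of the pathway called, higher by 3.45 (SE 0.52, adjusted p = 1.39e-04), at 129, 127 and 52.3 in CD44LowKitPos. These comparisons share libraries with each other and with those above.

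CD44High against CD44LowKitPos, which the study proposes as the last step of the transition, gave 0 called of 6 genes by edgeR and limma voom. DESeq2 called 1, and 1 had an unadjusted p under 0.05 in edgeR. Of all 12949 genes tested, 2306 had an unadjusted p under 0.05 and 3.01% were called. *Rarg* was at least 3.77-fold lower in CD44High (all at 0, against the mean of the limits that a count of 0 allows in each library), with an adjusted p of 0.0110. *Rarb* differed by -1.96 (SE 1.02, adjusted p = 0.326). Its difference was -0.70 without CD44LowKitPos replicate 19 (adjusted p = 0.879) and -3.52 by limma voom (adjusted p = 0.289). Its adjusted p was 0.0021 without CD44High replicate 20, the library that held all its CD44High counts, and it was not called in the other 10 of 11 alternatives. *Rara* differed by 0.26 and *Rxra* by 0.59. Of the other 59 genes, 43 were tested and 4 fell. *Cyp26b1* was at 0 in CD44High, at least 22.5-fold lower (adjusted p = 5.75e-05), and *Rbp2*, a retinol-binding protein gene, was at least 9.39-fold lower (adjusted p = 0.00237). The call for *Rbp2* ended without CD44High replicate 20, 21 or 22 (adjusted p = 0.0138, 0.0120 and 0.0151).

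*Tgm2*, a transglutaminase gene known as a retinoic acid target, fell by 4.79 on the log2 scale (SE 0.69, adjusted p = 5.43e-05), from 98.3, 82.0 and 51.7 in CD44LowKitPos to 6.33, 0 and 1.63 in CD44High. *Dhrs3* differed the other way, at 44.3, 112 and 156 in CD44High against 12.4, 23.1 and 14.0, without overlap but short of the threshold (2.66, SE 0.68, adjusted p = 0.0173).

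Set against CD44LowKitNeg, 16% of all genes were called in CD44High (7.79% higher, 8.17% lower), and of the 6 genes tested *Rarb* and *Rarg* were called, both lower. *Rarb* fell by 4.07 on the log2 scale (SE 1.04, adjusted p = 0.00525), from 15.7 to 66.7 in the 6 CD44LowKitNeg libraries to 8.71, 0 and 0. Within E11, where both populations were collected, its value was -3.88 (adjusted p = 0.0108), and without CD44High replicate 21 or 22 the adjusted p was 0.0238 or 0.0257. The size rested on CD44High replicate 20, the only CD44High library with *Rarb* counts: without it the difference was -11.2, which depends on the prior count, and by limma voom it was -6.40. *Rarg* was at least 5.17-fold lower (adjusted p = 0.00153) and was called in all 15 alternatives. *Rara* differed by -1.55 (adjusted p = 0.156), and *Rxra* changed sign between alternatives.

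Of the 43 other genes tested in this comparison, 2 rose and 7 fell. *Cyp26b1* was at least 125-fold lower (adjusted p = 5.62e-07) and *Cyp26a1* at least 59.1-fold lower (adjusted p = 0.00519), both at 0 in CD44High. *Meis2* fell by 4.61 (SE 1.13, adjusted p = 0.0037) and *Tgm2* by 4.96 (SE 0.67, adjusted p = 6.82e-06). *Dhrs3* rose by 2.53 on the log2 scale (SE 0.53, adjusted p = 9.65e-04). Leaving out 1 CD44High library ended some of these calls. For *Cyp26a1* the adjusted p was 0.0248, 0.0226 and 0.0246 without replicate 20, 21 or 22. For *Meis2* it was 0.0250 and 0.0189 without replicate 21 or 22, and for *Dhrs3* it was 0.0175 without replicate 22 and 0.0241 within E11.

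Against CD44Neg, 14.4% of all genes were called in CD44High (7.14% higher, 7.25% lower) and 1 of the 6 genes was called. *Rarg* was at least 11.9-fold lower (adjusted p = 4.57e-04) and was called in all 19 alternatives. *Rarb* did not overlap (14.5 to 62.7 against 8.71, 0 and 0) and differed by -3.38 (SE 0.98, adjusted p = 0.0137). *Rarb* was called by DESeq2 (adjusted p = 2.23e-04), by limma voom (adjusted p = 0.00568) and without CD44High replicate 20 (adjusted p = 1.01e-04), the library with all its CD44High counts. It was not called in the other 16 of 19 alternatives, with an adjusted p of up to 0.0607 (without CD44High replicate 21). *Cyp26b1* was at least 32.5-fold lower (adjusted p = 4.26e-06), and of the other genes 2 rose and 5 fell.

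**Figure D4:**
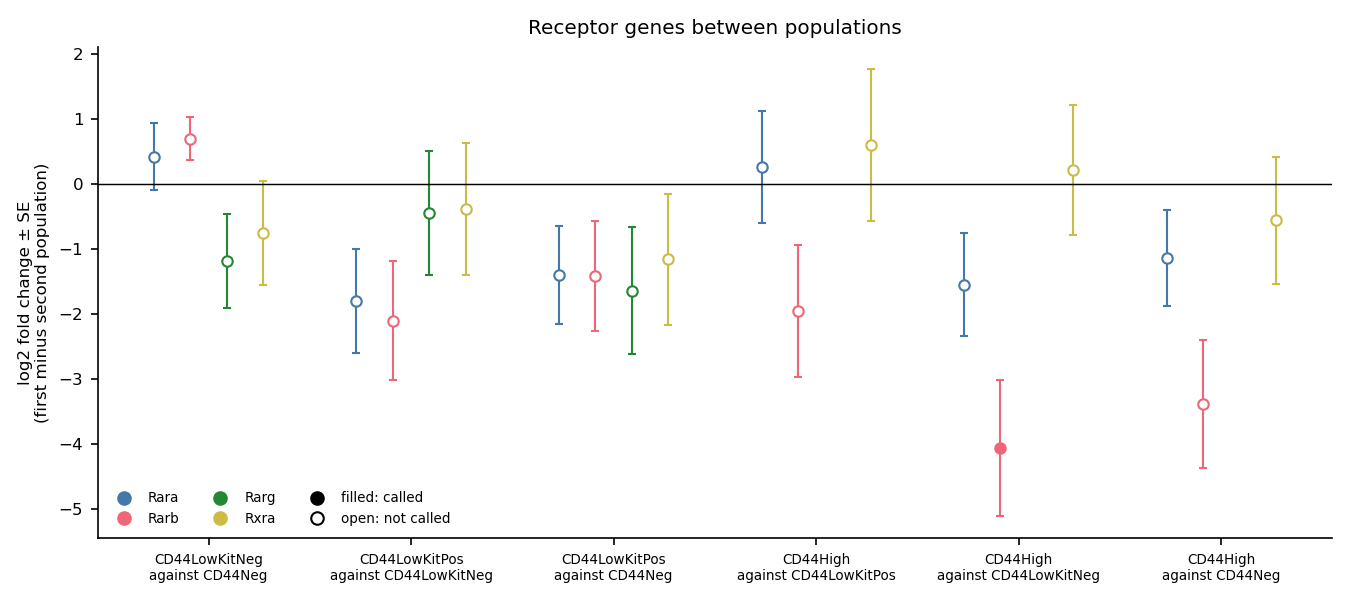
Log2 fold change with its SE (bars) for *Rara*, *Rarb*, *Rarg* and *Rxra* in the 6 population comparisons, from edgeR's quasi-likelihood fits, filled where called. *Rarb* in CD44High against CD44LowKitNeg, at -4.07, is the filled point, and *Rarg* is left out of the CD44High comparisons, where its CD44High libraries are at 0.

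Between stages, none of the 9 genes was called. In CD44Neg at E11 against E9.5, 5 genes were tested and 0 were called by edgeR, DESeq2 or limma voom. An unadjusted p under 0.05 was found for 1 of the 5 and for 1925 of all 11250 genes tested, and 0.684% of the 11250 were called. *Rara* was 23.3, 9.53 and 19.5 at E11 and 3.22, 4.06, 7.82 and 7.32 at E9.5, which did not overlap (log2 fold change 1.65, SE 0.66, adjusted p = 0.210). *Rarb* differed by -0.37 and *Rarg* by 1.30. At E10 against E9.5, 0.0178% of genes and 0 of the 5 were called. An unadjusted p under 0.05 was found for 1 of the 5 and for 1709 of all genes tested. *Rarg* was 9.45, 26.2 and 12.9 at E10 against 1.33, 3.10, 5.96 and 3.30 at E9.5. The *Rarg* libraries of the 2 stages did not overlap (2.25, SE 0.76, adjusted p = 0.179), and *Rara* differed by 1.08. How many of all genes were separated between stages in this way was not counted. At E11 against E10, 0% of all genes and 0 of 5 were called. An unadjusted p under 0.05 was found for 0 of the 5 and for 977 of all genes tested.

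Of the other genes, *Cyp26a1*, with the stage values given above, differed by -5.85 in CD44Neg at E11 against E9.5 (SE 1.07, adjusted p = 0.0103) without overlap. It was called in 3 of 12 alternatives, by DESeq2 (adjusted p = 9.27e-09), without the filter (adjusted p = 3.66e-04) and with replicate 3 left out, and its highest adjusted p was 0.0412 (without replicate 2). Without CD44Neg replicate 3, the only E11 library of the 3 with *Cyp26a1* counts, it differed by -10.1 (adjusted p = 0.00885), a size that depends on the prior count since the E11 libraries left are at 0.

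In CD44LowKitNeg at E11 against E9.5 and E10, 4 genes were tested, 0 were called and 0 had an unadjusted p under 0.05. Of all 11010 genes tested, 1851 had an unadjusted p under 0.05 and 0.173% were called. *Rara* was 20.8, 16.3 and 17.8 at E11, 2.20 at E9.5 and 19.3 and 11.1 at E10. The blood marker sums given above split by the same stages, and *Runx1*, a transcription factor gene needed for the transition and named after its values were seen, was at 0 in the E11 libraries against a mean of 76.3 in the earlier ones (adjusted p = 0.00759). The part of this split in the stage results was not tested. Whether the difference between CD44LowKitNeg and CD44Neg itself changed from E10 to E11 was tested in 11 libraries. In that fit 6 genes were tested, 0 were called and 0 had an unadjusted p under 0.05. Of all 12403 genes tested, 1321 had an unadjusted p under 0.05 and 0.00806% were called. The change in the *Rarb* difference was -0.24 on the log2 scale (SE 0.87, adjusted p = 0.987) and that in *Cyp26a1* was 3.05 (SE 1.43, adjusted p = 0.472), or 7.51 without CD44Neg replicate 3 (adjusted p = 0.150), with the same dependence on the prior count. In every stage comparison the counts of 0 were from edgeR, and DESeq2 and limma voom called 0 of the 9 genes as well.

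The genes whose levels followed each receptor most closely are given as a description over the 22 libraries, which share the same populations, stages and depths. By Pearson's r of log2 CPM, *Rarb* was most like *Yap1* (0.948), *Nckap1* (0.945) and *Efnb2* (0.938). Spearman's rank correlation of these pairs was lower, at 0.663, 0.642 and 0.678. *Rarb*, *Yap1* and *Nckap1* were each at 0 in 2 libraries and *Efnb2* in 1. *Rarg* was most like *Tcf15* (0.853), *Egfl7* (0.851) and *Kctd17* (0.845), with rank correlations of 0.734, 0.836 and 0.763 and with *Rarg* at 0 in 3 libraries. *Rara* was most like *Acsf2* (0.863, rank correlation 0.842) and *Abi3* (0.799, rank correlation 0.719). The highest r values for *Rxra* were 0.760 with *Ccdc66*, 0.716 with *Atg4a* and 0.711 with *Dis3l*, with rank correlations of 0.567, 0.434 and 0.540. For *Crabp1* they were 0.808 with *Shtn1*, 0.766 with *Igip* and 0.746 with *Hspa12a*, and for *Crabp2* 0.629 with *Cnot4*, 0.626 with *Zfp366* and 0.625 with *Slc1a4*, over libraries of which 17 and 12 were at 0. Spearman's rank correlation was 0.701, 0.722 and 0.708 for the *Crabp1* pairs and 0.679, 0.550 and 0.714 for the *Crabp2* pairs.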

How the data were processed

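Bulk RNA-seq of 25 sorted cells per library was deposited as 1 table of raw counts. According to the methods, the authors clipped adaptors with FASTX, mapped reads with RNA STAR and obtained the deposited counts with htseq-count; the labels name mm10, FastQC and HTSeq. The annotation, tool versions and strand setting are not given in the sources used here. PCR duplicates could not be removed, since SMART-Seq2 reads carry no molecular identifiers.

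Counts were tested with edgeR 4.0.16 in R 4.3.3 (filterByExpr with a minimum count of 10 and total of 15, TMM, quasi-likelihood test, Benjamini-Hochberg over all genes tested, called at an adjusted p under 0.01). CD44LowKitNeg against CD44Neg used their 16 libraries, other population comparisons all 22, and stage comparisons the libraries of that population. The SE is the log2 fold change divided by the square root of F. Fits were also run on simulated counts with the same spread for every gene and changes only in genes with counts in many libraries. The outcome is not reported here and does not bear on genes with few counts. Counts of replicate pairs differed beyond sampling noise in all 20 pairs (chi-square per degree of freedom 16.3 or more). Alternatives used DESeq2 1.42.0, limma 3.58.1, other scaling, no filter, stage terms and single libraries left out. Values within a stage came from a fit of all 22 libraries by population and stage, not from the libraries of that stage alone. For E9.5 and E10 both stages were weighted equally. The only CD44LowKitNeg and CD44LowKitPos libraries of E9.5 therefore each weighed as much as those of E10 together. Coordinates and exon lengths come from GENCODE M21 (GRCm38), and promoters from RefSeq GRCm38.p6. Genes named outside the 9 were those of fixed pathway lists called in the main population or stage comparisons, plus the CYP26, *Rdh10*, *Dhrs3*, *Fabp5*, *Rxrb* and *Rxrg* genes, and 3 most alike genes for each member with enough counts; some genes that this rule or the marker lists name are not reported here, though counts over lists include them. The members and lists were chosen with earlier results of these data known.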

Additional observations from a re-analysis of the deposited data

Results flagged for a closer look

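Of 35 groups over 20 genes, 11 held a library far from the rest by Dixon's criterion. Each group was the 10 CD44Neg or the 6 CD44LowKitNeg libraries of a gene, and CD44LowKitPos and CD44High were not screened. The criterion's chance rate of about 1 in 20 assumes normally distributed values. It does not hold for genes at 0 in most libraries, such as *Aldh1a3* and *Crabp1*, so the count of 11 cannot be set against it. CD44LowKitNeg replicate 11 stood low for 3 genes: *Rarb* at 15.7 normalized CPM (nearest 52.7), *Cyp26b1* at 25.0 (nearest 90.0) and *Ncor1* at 85.1 (nearest 161). Without it the adjusted p of CD44LowKitNeg against CD44Neg was 0.0450 for *Rarb*, 6.44e-04 for *Cyp26b1* and 0.00287 for *Ncor1*. CD44Neg replicate 3 stood high for *Aldh1a3* at 2.63 (nearest 0) and *Fabp5* at 153 (nearest 91.6). *Crabp1* was 2.84 in CD44Neg replicate 4 (nearest 0), and *Crabp2* was 15.8 in CD44Neg replicate 2 (nearest 3.35) and 5.56 in CD44LowKitNeg replicate 12 (nearest 2.03). In CD44Neg, *Rarg* was 26.2 in replicate 9 (nearest 12.9), *Dhrs3* was 132 in replicate 6 (nearest 80.0) and *Ncor1* was 161 in replicate 7 (nearest 109).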

How the results depend on the processing

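The number of the 9 genes called stayed as given under 65 of 72 alternatives other than leaving out single libraries. In CD44High against CD44LowKitPos it became 1 by DESeq2, at an adjusted p under 0.05 and with stage as a covariate, and was 0 to 1 with libraries left out in turn (1 without CD44High replicate 20). In CD44High against CD44LowKitNeg it became 1 within E11, and was 1 to 2 with libraries left out. In CD44High against CD44Neg it became 2 by DESeq2, limma voom and at 0.05, and was 1 to 2 with libraries left out. The cause was not tested.

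Several uncalled values changed sign. In CD44LowKitNeg against CD44Neg, *Rara* was -0.069 with stage as a covariate and -0.47 within E9.5 and E10 and *Fabp5* was -0.66 within E11. In CD44LowKitPos against CD44LowKitNeg, *Rarg* was 0.14 by limma voom, 0.27 with stage and 0.85 within E9.5 and E10, and *Rxra* was 0.28 by limma voom. *Rara* in CD44High against CD44LowKitPos was -0.89 with stage, and limma voom gave *Rxra* -0.28 in CD44Neg at E11 against E10 and -1.22 in CD44LowKitNeg between stages. With libraries left out, ranges crossing 0 were -0.42 to 0.62 for *Rara* in CD44High against CD44LowKitPos, -0.093 to 0.46 for *Rxra* in CD44High against CD44LowKitNeg, and -0.88 to 0.60 for *Rxra* in CD44LowKitNeg between stages. Between stages of CD44Neg they were -1.02 to 1.05, -0.45 to 1.01 and -1.42 to 0.89 for *Rxra* (E11 against E9.5, E10 against E9.5, E11 against E10), and -1.06 to 0.19 and -0.57 to 0.68 for *Rarb* (E10 against E9.5, E11 against E10), and -1.19 to 0.14 for the stage dependence of *Rarb*.

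Counts over all genes moved more than those of the 9. DESeq2 called 1879 genes against 1121 in CD44LowKitNeg against CD44Neg, where E11 alone gave 422 and E9.5 with E10 gave 184. DESeq2 also called 1318 against 552 and 867 against 451 for CD44LowKitPos against CD44LowKitNeg and CD44Neg, 738 against 390 for CD44High against CD44LowKitPos, and 462 against 77 for CD44Neg at E11 against E9.5. For the other stage tests the main counts were 2, 0, 19 and 1, and DESeq2 gave 260, 54, 606 and 137, no filter gave 116, 24, 163 and 190. With libraries left out, CD44LowKitPos against CD44LowKitNeg gave 65 to 687 (65 and 160 without CD44LowKitPos replicates 17 and 18, 342, 312 and 334 without CD44LowKitNeg replicates 11, 12 and 13), and CD44LowKitPos against CD44Neg gave 159 to 630 (182 and 159 without CD44LowKitPos replicates 17 and 18). Without CD44High replicate 22, CD44High gave 251 against CD44LowKitPos and 1334 against CD44LowKitNeg, where the main count was 2067. CD44Neg at E11 against E9.5 gave 8 to 75 (8, 21, 9, 14 and 24 without replicates 1, 2, 3, 4 and 7), and CD44LowKitNeg between stages gave 0 to 2 whichever library was left out.

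No paired analysis was possible because the labels number the libraries from 1 to 22, so that no 2 groups share a number. A gene with few counts from 25 cells cannot be told from one absent: *Aldh1a1* at 0 allows up to 0.816 normalized CPM in the library with the highest limit.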
